A study of Mus musculus with 87 samples.

Results

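The comparison described here sets 3 libraries of mouse haploid embryonic stem cells labelled Dnmt TKO against 3 libraries labelled Dnmt WT, 6 of the 87 samples in the series. They were chosen by their genotype label and their place in the deposited table of haploid cells. The cell line of all of them is AG-haESC, androgenetic haploid embryonic stem cells, which carry a single genome of paternal origin. TKO is the study's label for a triple knockout of Dnmt genes, and no treatment is recorded for either group. A further genotype, labelled Dnmt STOP (2 libraries), shared the statistical fit and is given only beside TKO values; the labels do not say what STOP stands for. Polyadenylated RNA was sequenced. The other samples of the series are not haploid cells and are not used here. How the genes were disrupted, the number of clones and the ploidy of the cells at collection are not given either. No label says whether the libraries of a group are separate cultures, so the p-values reflect only how these libraries vary.

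DNA methylation in mammals is laid down on CG dinucleotides by Dnmt3a and Dnmt3b, helped in germ cells by the inactive cofactor Dnmt3l. It is copied after replication by Dnmt1, which Uhrf1 recruits to hemimethylated DNA. Embryonic stem cells divide without it, whereas differentiated cells do not tolerate its loss. The mark is known above all for silencing germ cell genes with CG-rich promoters, genes of the X-linked Rhox and Xlr clusters, and transposons. At many imprinted clusters it marks the control region of 1 parental copy. In a genome of paternal origin the imprints set in sperm are present and those set in oocytes are not.

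All 6 libraries expressed the defining genes of embryonic stem cells. Sox2 lay between 499 and 580 CPM (counts per M reads assigned to genes) and Nanog between 998 and 1488 CPM. The 10 core pluripotency genes summed to 5916 to 6186 CPM in WT and to 5226 to 5735 CPM in TKO libraries. Of 17 fibroblast markers, listed because embryonic stem cells are often grown on feeder cells, Col6a1 and Prrx1 had 0 counts in all 6 libraries and Col1a2, Col3a1, Postn, Lum and Dcn stayed under 0.25 CPM. That list summed to 23.8 to 27.5 CPM in WT and to 27.6 to 34.4 CPM in TKO libraries, and its part in the results was not tested. The 15 primitive endoderm markers summed to 279.7 to 309 CPM in WT and 278 to 353 CPM in TKO libraries, mostly Sparc (155 to 226 CPM) and Lama1 (46.1 to 73 CPM), while Foxa2, Gata6 and Cubn stayed under 0.5 CPM. The 18 trophectoderm markers summed to 136 to 142 CPM in WT and 182 to 229 CPM in TKO libraries, mostly Tfap2c (27.4 to 131 CPM) and Tead4 (28.1 to 42.3 CPM), while Elf5, Hand1 and Plac1 stayed under 0.5 CPM. The part of either in the results was not tested. In bulk RNA, fewer cells that express a gene and less RNA per cell cannot be told apart.

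The library labelled TKO 3 stood apart from TKO 1 and TKO 2 before any test between the genotypes. Library totals were similar, 16.8 to 21.2 M counts in WT and 19.8, 21 and 24.5 M in TKO 1, 2 and 3. Across the 14959 genes tested, log CPM of TKO 3 correlated with the WT libraries at 0.974 to 0.975, with TKO 2 at 0.969 and with TKO 1 at 0.95, while TKO 1 and 2 correlated with each other at 0.984. These correlations are across genes of shared expression level and are given as a description. TKO 1 and 2 correlated with both STOP libraries at 0.986 to 0.990, and TKO 3 with them at 0.967 and 0.960. The spread between libraries beyond counting noise (biological coefficient of variation) was 6.5% among WT libraries, 29.5% among TKO libraries and 16% between TKO 1 and 2 alone. Of 10589 genes with a TKO mean of at least 5 CPM, 598 differed at least 2-fold in TKO 3 from both other TKO libraries (113 above them, 485 below), against 90 such genes for TKO 1 and 8 for TKO 2. Results are therefore given with and without TKO 3.

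The targeted genes checked the labels of all 3 TKO libraries. Dnmt1, the maintenance methyltransferase (mm10 chr9:20907209-20959888), measured 418, 421 and 425 CPM in WT 1 to 3 and 70.4, 74 and 68.8 CPM in TKO 1 to 3. The de novo enzyme Dnmt3a (chr12:3806007-3914443) measured 64.4, 75 and 67 CPM in WT and 11.9, 10.5 and 11.5 CPM in TKO libraries. Dnmt3b (chr2:153649450-153687730) measured 126, 132 and 149 CPM in WT and 23.7, 26.9 and 21.8 CPM in TKO libraries. TKO 3 held as little RNA of the 3 genes as TKO 1 and 2, the groups did not overlap, and the TKO means were 0.169, 0.164 and 0.178 times the WT means. All 3 genes fell (edgeR quasi-likelihood test, adjusted p = 6.44e-07 for Dnmt1 and 6.93e-06 for Dnmt3a and Dnmt3b) and passed in every alternative that was run. RNA remained in TKO cells, and the part of each gene that was removed is not given, so these values measure transcripts and not protein. The cofactor Dnmt3l measured 121, 101 and 127 CPM in WT and 123, 67.1 and 101 CPM in TKO libraries, and Uhrf1 measured 715, 692 and 698 against 633, 700 and 616 CPM. Both sets overlapped, and neither passed (edgeR adjusted p = 0.297 and 0.168).

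**Figure D1:**
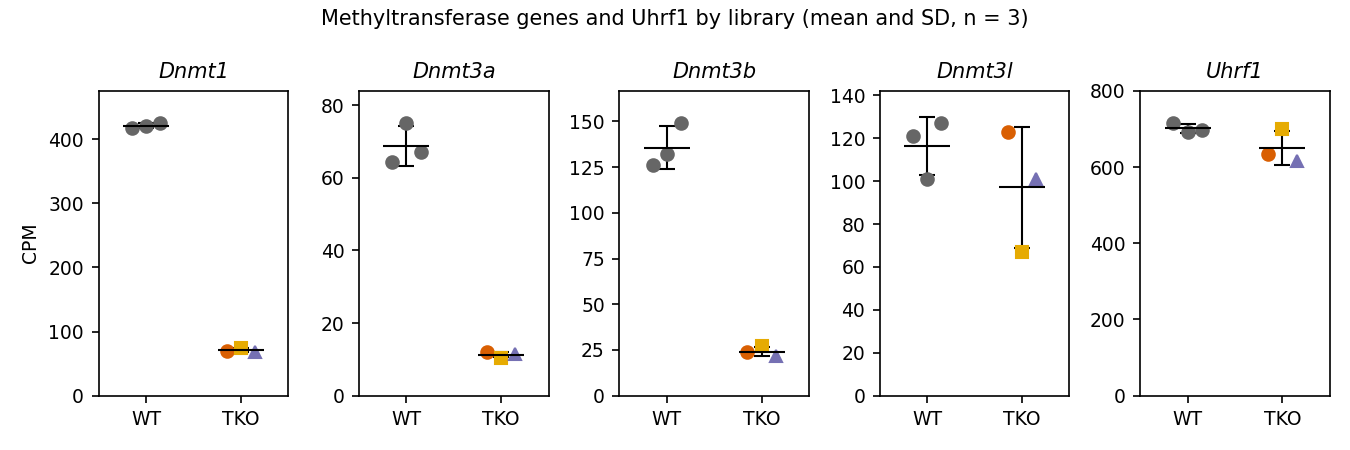
Levels of Dnmt1, Dnmt3a, Dnmt3b, Dnmt3l and Uhrf1 in CPM (vertical axes from 0) in 3 WT libraries (grey) and TKO 1 (orange circle), TKO 2 (yellow square) and TKO 3 (purple triangle); bars are the mean and SD of 3 libraries. Dnmt1 sits between 68.8 and 74 CPM in all 3 TKO libraries and above 417 CPM in every WT library, while Dnmt3l and Uhrf1 overlap.

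Other genes that write, read or remove methylation moved little or only in some libraries. Of 8 tested genes for oxidation and removal of methylcytosine, 1 rose and 1 fell, beside 9.83% and 4.72% of all 14959 genes tested, and of 8 readers of methylated DNA 0 passed with edgeR. At an unadjusted p under 0.05, 3 readers were lower and 0 higher, DESeq2 called 2 lower (8.36% of all genes were called lower and 13.2% higher with that tool), and edgeR without TKO 3 called 4 lower, beside 22.1% of all genes in that fit. Both calls among the removal genes depended on single libraries: the rise was absent without WT 1 or WT 3, and the fall without TKO 2, any 1 WT library or either STOP library. Tet2, an enzyme that oxidises methylcytosine (chr3:133463679-133545139), measured 419, 364 and 371 CPM in WT and 117, 132 and 337 CPM in TKO 1, 2 and 3. TKO 1 and 2 were far below WT and TKO 3 near it, so Tet2 did not pass over all libraries (log2 fold change -0.99 ± 0.37 SE, edgeR adjusted p = 0.104) but was lower without TKO 3 (log2 fold change -1.71). Dppa3, which encodes a factor that holds off Uhrf1 and guards maternal methylation in the zygote (chr6:122626410-122630272), measured 6.14, 7.88 and 5.71 CPM in WT and 70.1, 41.8 and 30.8 CPM in TKO 1, 2 and 3. It rose in all 3 TKO libraries (log2 fold change 2.79 ± 0.27 SE, edgeR adjusted p = 0.00108) and in every alternative. Of 12 factors that protect imprints, 2 rose and 0 fell, and only Dppa3 remained without TKO 2 or any 1 WT library, while 6 fell without TKO 3, where 22.1% of all genes fell.

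Over all genes, 1471 rose and 706 fell in TKO cells (14.6% of 14959, edgeR adjusted p under 0.05), of which 900 rose and 212 fell at least 2-fold. They stand beside 6.02% and 1.42% of the genes tested. Every TKO library lay above every WT library for 2863 genes (19.1%) and below for 2286 (15.3%). The count of 2177 calls changed when any 1 library was left out. It was 1545, 866 and 6968 without TKO 1, 2 and 3, 635, 740 and 574 without WT 1, 2 and 3, and 1240 and 1246 without STOP 1 and 2. The fit takes 1 spread per gene as shared by all groups, though the spread was 6.5% among WT and 29.5% among TKO libraries. Leaving out a library of any group also alters that shared spread, and its part in these counts was not tested. Of the genes tested, 7%, 4.3% and 24.8% were higher without TKO 1, 2 and 3, 3.17%, 3.67% and 2.85% without WT 1, 2 and 3, and 5.54% and 5.58% without STOP 1 and 2. The shares that were lower were 3.43%, 1.51% and 22.1%, then 1.09%, 1.3% and 1%, then 2.5% and 2.53%. Counts of list members are to be read beside the share of the same fit, 9.83% higher and 4.72% lower over all libraries. In all, 522 genes (390 higher, 132 lower) held their call in each of the 16 alternatives that tested them.

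Leaving out TKO 3 gave 3684 higher and 3284 lower genes, 46.8% of 14881 tested. The split between higher and lower moved with it, from 67.6% higher among the calls of all libraries to 52.9% without TKO 3. Among the 3684 genes higher in TKO 1 and 2, TKO 3 lay above every WT library for 2001 (54.3%), within the WT range for 921 (25%) and below every WT library for 762 (20.7%). Among the 3284 lower genes it lay below every WT library for 1951 (59.4%), within the range for 772 (23.5%) and above for 561 (17.1%). For genes changed at least 2-fold in that fit, the median change of TKO 3 was 29.1% of that of TKO 1 and 2 for the 1738 higher genes and 33% for the 702 lower genes. These genes were picked by TKO 1 and 2, so the shares describe TKO 3 and test nothing.

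**Figure D2:**
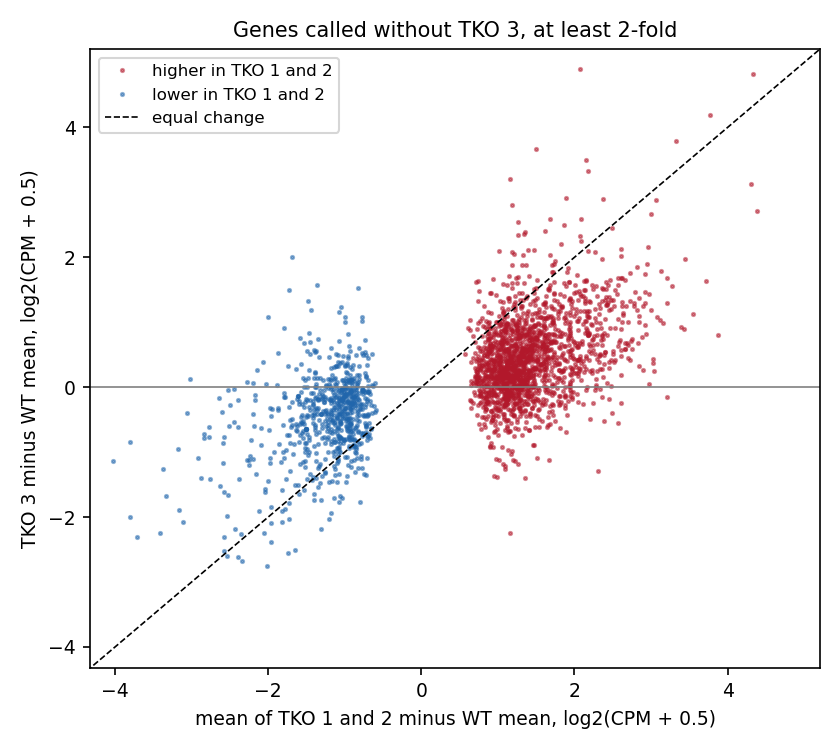
Each point is a gene called without TKO 3 and changed at least 2-fold in that fit (1738 higher in red, 702 lower in blue); the horizontal axis is the mean of TKO 1 and 2 minus the WT mean and the vertical axis TKO 3 minus the WT mean, both in log2(CPM + 0.5), which brings low genes closer to 0. Most points lie between the zero line and the dashed line of equal change: the median change of TKO 3 was 29.1% (higher genes) and 33% (lower genes) of that of TKO 1 and 2.

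A minority of germ cell genes rose, some of them strongly, and most of those measured did not pass. Of 90 germ cell genes listed, 66 passed the filter on low counts, and of these 19 rose, 2 fell and 45 did not pass. The shares of 28.8% and 3.03% stand beside 9.83% and 4.72% of all genes tested, and the median log2 fold change of the 66 was 0.58 beside 0.01 for all genes. Genes that passed the filter through TKO libraries alone had to differ, so these values describe the 66 and not all 90. The count of 19 became 12, 7 and 31 without TKO 1, 2 and 3, 6, 7 and 5 without WT 1, 2 and 3, and 9 without either STOP library. The 2 falls were 1 without TKO 2, any 1 WT library or either STOP library, and 15 without TKO 3.

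By role, 9 of 24 tested genes for germ cell RNA binding and the piRNA pathway rose and 1 fell, 7 of 26 meiosis genes rose and 1 fell, and 3 of 16 genes of sperm-forming cells rose and 0 fell. Without TKO 1, 2 and 3 the 9 became 5, 2 and 12, the 7 became 4, 3 and 12, and the 3 became 3, 2 and 7. Without WT 1, 2 and 3 the 9 became 2 each time, the 7 became 2, 3 and 1, and the 3 became 2 each time. Without either STOP library they became 2, 5 and 2. The 5 rises that held in every alternative were Dazl, Fkbp6, Smc1b, Tuba3a and Tktl2. The sequences that precede 4 risen genes and 1 that did not pass are shown because CG-rich promoters are where methylation is known to silence germ cell genes. Each is the 250 bases before the RefSeq start (GRCm38.p6), 5′ to 3′ on the gene's strand, with CG dinucleotides in capitals. They cover chr17:50293621-50293870 (minus strand, Dazl), chr5:135350045-135350294 (minus, Fkbp6), chr3:95559427-95559676 (plus, Hormad1), chr15:85131958-85132207 (minus, Smc1b) and chr1:166238745-166238994 (minus, Mael, which did not pass).
Dazl: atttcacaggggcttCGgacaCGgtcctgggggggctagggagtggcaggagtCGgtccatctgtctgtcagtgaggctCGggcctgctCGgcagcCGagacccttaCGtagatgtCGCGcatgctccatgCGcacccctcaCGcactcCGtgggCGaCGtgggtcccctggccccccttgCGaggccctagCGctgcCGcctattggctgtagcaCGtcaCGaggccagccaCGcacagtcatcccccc
Fkbp6: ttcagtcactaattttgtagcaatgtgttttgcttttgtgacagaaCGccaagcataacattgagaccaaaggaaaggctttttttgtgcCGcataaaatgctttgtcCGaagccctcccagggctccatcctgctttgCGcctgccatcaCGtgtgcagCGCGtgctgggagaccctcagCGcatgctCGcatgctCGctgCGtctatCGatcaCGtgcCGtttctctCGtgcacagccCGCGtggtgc
Hormad1: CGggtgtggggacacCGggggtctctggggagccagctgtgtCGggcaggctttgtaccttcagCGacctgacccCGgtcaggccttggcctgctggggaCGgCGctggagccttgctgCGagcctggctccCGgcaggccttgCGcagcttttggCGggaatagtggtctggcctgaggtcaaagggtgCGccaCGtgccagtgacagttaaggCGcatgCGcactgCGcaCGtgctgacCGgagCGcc
Smc1b: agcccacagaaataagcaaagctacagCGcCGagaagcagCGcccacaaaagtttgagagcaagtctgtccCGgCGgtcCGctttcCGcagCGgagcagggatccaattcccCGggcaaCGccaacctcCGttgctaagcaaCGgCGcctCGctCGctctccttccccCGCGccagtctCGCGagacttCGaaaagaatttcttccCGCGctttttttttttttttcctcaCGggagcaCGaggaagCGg
Mael: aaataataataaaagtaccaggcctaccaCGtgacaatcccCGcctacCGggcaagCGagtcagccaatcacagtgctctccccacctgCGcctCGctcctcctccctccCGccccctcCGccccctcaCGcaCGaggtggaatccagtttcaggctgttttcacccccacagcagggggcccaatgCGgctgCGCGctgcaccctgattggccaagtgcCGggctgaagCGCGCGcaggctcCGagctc

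These windows hold 20 CG dinucleotides before Dazl, 17 before Fkbp6, 19 before Hormad1, 25 before Smc1b and 18 before Mael, so the gene that did not pass is as CG-rich as those that rose. The median was 17 for the 18 risen germ cell genes found in the RefSeq table, 13 for the 38 that did not pass, 15 for all genes tested here and 6 for all 27025 genes of the table. Only 77.5% of the genes tested were found there, so the values over all genes tested are void as a test; they are given because the 6 includes genes that were not tested. Letters bound by the repressor complex PRC1.6, which silences germ cell genes beside methylation, were searched on both strands, counting matches whether or not they overlapped. TCCCGC (reverse complement GCGGGA), a motif of its subunit E2f6, was present before 7 of 18 risen genes (38.9%), 15 of 38 that did not pass (39.5%), 29.6% of the genes tested and 16.9% of all genes in the table. CACGTG, its own reverse complement and a motif of the subunits Mga and Max, was present before 4 of 18 risen genes (22.2%), 13 of 38 that did not pass (34.2%), 8.46% of the genes tested and 6.04% of all genes in the table. Neither motif was more frequent before risen genes than before those that did not pass. Counted from the start of the gene, Fkbp6 has CACGTG at -101 and -37, Hormad1 has GCGGGA at -95 and CACGTG at -57 and -20, Smc1b has TCCCGC at -47, and Mael has CACGTG at -223 and TCCCGC at -143. Neither motif occurs in the Dazl window. A match is a description of the letters and shows no binding. Of 13 PRC1.6 subunits tested, 0 rose and 1 fell, Pcgf6 (log2 fold change -0.38, edgeR adjusted p = 0.0112). That call was lost without any 1 WT library. Without TKO 3, 1 rose and 7 fell, beside 24.8% and 22.1% of all genes in that fit.

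Germ cells need the RNA-binding protein Dazl (chr17:50279395-50293636). It measured 10.8, 14.5 and 12.7 CPM in WT and 115, 148 and 182 CPM in TKO 1, 2 and 3. All 3 TKO libraries were far above WT and TKO 3 was the highest (log2 fold change 3.51 ± 0.21 SE, edgeR adjusted p = 9.94e-05). Fkbp6, a chaperone partner of the piRNA pathway (chr5:135291704-135350044), measured 3.46, 3.54 and 3.64 CPM in WT and 18.9, 22.1 and 29.5 CPM in TKO libraries, again highest in TKO 3 (log2 fold change 2.69 ± 0.21 SE, edgeR adjusted p = 0.000455). Smc1b, a cohesin subunit of meiosis (chr15:85064689-85131964), measured 2.92, 5.28 and 5.21 CPM in WT and 16.7, 13.5 and 13.9 CPM in TKO libraries. Tuba3a, an alpha tubulin of the testis (chr6:125278274-125286042), measured 4.29, 8.11 and 5.46 CPM in WT and 22, 35 and 26.3 CPM in TKO libraries. Neither of these 2 genes overlapped between groups, and TKO 3 sat among the other TKO libraries (log2 fold changes 1.66 ± 0.27 and 2.17 ± 0.26 SE, edgeR adjusted p = 0.00645 and 0.00233).

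Other germ cell genes split the TKO libraries. Hormad1, a protein of meiotic chromosome axes (chr3:95559677-95587671), measured 6.32, 10.8 and 9.49 CPM in WT and 15.6, 26.4 and 38.2 CPM in TKO 1, 2 and 3, the highest in TKO 3. Tdrd12, a Tudor protein of the piRNA pathway (chr7:35469098-35537745), measured 51.2, 59.9 and 51.7 CPM in WT and 238, 181 and 55 CPM in TKO 1, 2 and 3. TKO 3 lay within the WT range of Tdrd12, while both STOP libraries averaged 214 CPM. Tex14, needed for the bridges between germ cells (chr11:87405065-87555823), measured 12.9, 15.2 and 10.9 CPM in WT and 89.4, 59.7 and 24.8 CPM in TKO 1, 2 and 3, lowest in TKO 3 but still above WT. All 3 genes rose over all libraries, with values of 1.57 ± 0.35, 1.46 ± 0.39 and 2.08 ± 0.36 SE on the log2 scale (edgeR adjusted p = 0.0216, 0.0388 and 0.00824 for Hormad1, Tdrd12 and Tex14). Without TKO 3 the values were 1.15, 1.85 and 2.43. Hormad1 did not pass without TKO 2 or without WT 1, 2 or 3 (adjusted p = 0.0638, 0.0947, 0.0601 and 0.0839), and Tex14 did not pass without WT 3 (0.0515). Tdrd12 did not pass without any 1 of WT 1, 2 and 3 (0.135, 0.103 and 0.138), TKO 1 and 2 (0.0935 and 0.122) and STOP 1 and 2 (0.0727 and 0.0721), nor in a fit that held TKO and WT only (0.0707).

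Among germ cell genes that wild-type embryonic stem cells already express, Tex15 was lower, while Piwil2, Ddx4 and Mael did not pass over all libraries. Tex15, which works with piRNAs in transposon methylation (chr8:33516738-33585582), measured 109, 117 and 105 CPM in WT and 64.1, 61 and 56.8 CPM in TKO libraries, with no overlap and TKO 3 the lowest. It fell (log2 fold change -0.91 ± 0.074 SE, edgeR adjusted p = 0.00049) in every alternative. Piwil2, a piRNA-binding protein (chr14:70372477-70429383), measured 22.9, 27.6 and 28.8 CPM in WT and 12.5, 14.1 and 35.9 CPM in TKO 1, 2 and 3. TKO 1 and 2 lay below WT and TKO 3 above it, so Piwil2 did not pass over all libraries (log2 fold change -0.36 ± 0.39 SE, edgeR adjusted p = 0.553). It passed without TKO 3, with a log2 fold change of -1.08. Ddx4, the helicase known as Vasa (chr13:112598333-112652475), measured 10.6, 10 and 10.4 CPM in WT and 6.16, 7.6 and 11.4 CPM in TKO libraries, and Mael, a piRNA factor, measured 5.48, 6.41 and 6.35 CPM in WT and 3.89, 3.14 and 5.19 CPM in TKO libraries. Neither passed over all libraries (edgeR adjusted p = 0.399 and 0.143), and both passed without TKO 3, with log2 fold changes of -0.67 and -0.89.

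Many X-linked Xlr genes and some Rhox and Mage genes rose. Of 28 tested X-linked testis, Xlr and Mage genes (49 listed), 15 rose, 0 fell and 13 did not pass, and of 9 tested Rhox genes (32 listed) 4 rose and 0 fell. The shares that rose, 53.6% and 44.4%, stand beside 9.83% of all genes. Within the 28, 9 of 10 Xlr genes, 3 of 5 Magea genes and 0 of 3 Mageb genes rose; the Mageb genes had log2 fold changes of -0.25 (Mageb3), -0.49 (Mageb4) and -0.15 (Mageb16). Of the tested genes, 5 of the 9 Rhox genes and 4 of the 28 had fewer than 10 counts in every WT library and passed the filter only through other libraries, so these could hardly fall and the counts do not describe all listed members. The median shift from WT of the 28 was 0.54, 0.81 and 1.45 log2 units in TKO 1, 2 and 3. Members of these families have near-identical copies, and how multimapping reads were handled is not given, so their single values are uncertain. The count of 15 became 18, 9 and 15 without TKO 1, 2 and 3, 5, 7 and 6 without WT 1, 2 and 3, and 8 without either STOP library, and the Rhox count of 4 became 7, 1 and 5, 1, 2 and 1, and 1 under the same omissions.

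Rhox5, a homeobox gene silenced by methylation in embryonic tissue (chrX:37804842-37808876), measured 16, 24 and 25.3 CPM in WT and 258, 342 and 398 CPM in TKO 1, 2 and 3, a 15.3-fold difference of means with TKO 3 highest. It rose in every fit that held X-linked genes (log2 fold change 3.89 ± 0.24 SE, edgeR adjusted p = 0.000101). Xlr4c, of a lymphoid-regulated gene family (chrX:73233688-73243130), measured 1.67, 2.88 and 2.61 CPM in WT and 7.63, 13 and 20.8 CPM in TKO libraries (log2 fold change 2.5 ± 0.39 SE, edgeR adjusted p = 0.00582). Xlr3a measured 28, 45.7 and 30.9 CPM in WT and 75.4, 84.9 and 81.3 CPM in TKO libraries, and Xlr3b 21.1, 25 and 20 against 51.8, 53.3 and 71.2 CPM. Neither overlapped, and both rose (log2 fold changes 1.16 and 1.38, with edgeR adjusted p = 0.00481 and 0.00239). Nxf3, a testis relative of the mRNA export factor (chrX:136072099-136085255), rose from 16.6, 16 and 17.1 to 34.4, 27.3 and 31.2 CPM. Magea4, a cancer-testis antigen gene, rose from 0.358, 0.189 and 0.541 to 2.53, 2.19 and 2.78 CPM.

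In Magea5 and Efhc2, TKO 3 lay far above the other TKO libraries. Magea5 (chrX:155053061-155063145) measured 0.238, 0.896 and 0.541 CPM in WT and 2.78, 2.04 and 12.5 CPM in TKO 1, 2 and 3. Efhc2, an EF-hand protein gene (chrX:17132049-17319368), measured 1.07, 2.97 and 1.77 CPM in WT and 10.1, 8.41 and 68.8 CPM in TKO libraries. All TKO libraries exceeded WT in both genes, and TKO 3 exceeded TKO 1 and 2 several-fold. Efhc2 was picked for its large rise without overlap and for the distance of TKO 3, so the choice fixed both. Their log2 fold changes were 3.33 ± 0.78 and 3.9 ± 0.89 SE (edgeR adjusted p = 0.0261 and 0.0232) and 1.96 and 2.13 without TKO 3. Neither passed without WT 1, 2 or 3 (adjusted p = 0.105, 0.0685 and 0.109 for Magea5 and 0.102, 0.0698 and 0.103 for Efhc2), and Magea5 did not pass without STOP 1 or 2 (0.0527 and 0.0523) or with TKO and WT alone (0.0509).

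**Figure D3:**
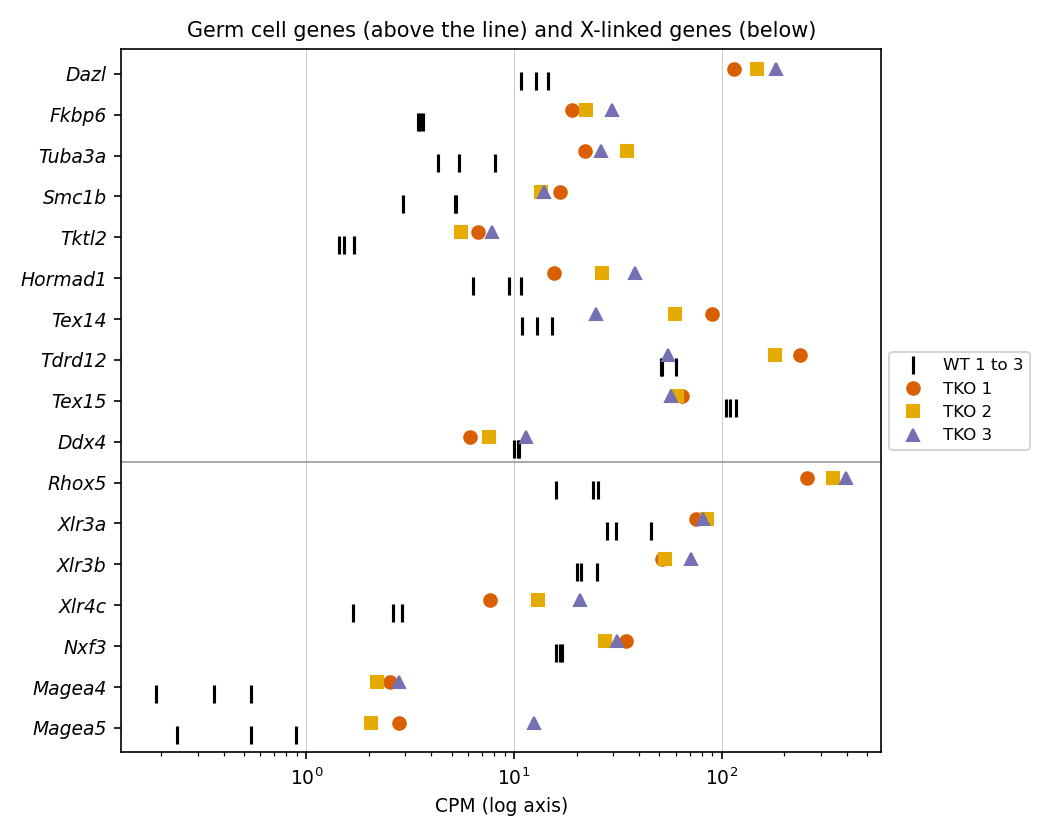
CPM on a log axis for 10 germ cell genes (above the line) and 7 X-linked genes (below it) in WT 1 to 3 (black ticks) and TKO 1, 2 and 3 (coloured symbols). Dazl, Fkbp6, Hormad1, Rhox5, Xlr3b, Xlr4c, Magea4 and Magea5 are highest in TKO 3, Tdrd12 of TKO 3 (55 CPM) lies within the WT range of 51.2 to 59.9 CPM, and Tex15 lies below WT in all 3 TKO libraries.

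Against those rises, the X chromosome as a whole was lower in TKO 1 and 2 and near WT in TKO 3. Over 382 X-linked genes at 5 CPM or more in WT, the median shift from WT was -0.76, -0.53 and -0.10 log2 units in TKO 1, 2 and 3, and -0.55 and -0.50 in STOP 1 and 2. No autosome reached such a shift, with medians of -0.05 to 0.10, -0.02 to 0.05 and -0.08 to 0.01 in TKO 1, 2 and 3. Of 584 X-linked genes tested, 56 rose (9.59%) and 76 fell (13%), beside 9.92% and 4.36% of 14069 genes placed elsewhere. Without TKO 3, 70 of 577 rose (12.1%) and 343 fell (59.4%), beside 25.4% and 20.6% of 13999 genes placed elsewhere. Xist, the RNA that coats an inactive X chromosome (chrX:103460366-103483254), measured 19.2, 25.2 and 26.6 CPM in WT and 14.8, 15.4 and 27.5 CPM in TKO 1, 2 and 3, and did not pass (edgeR adjusted p = 0.429). Its TKO 1 and 2 values lay below WT and its TKO 3 value above. Without TKO 3, Xist passed with a log2 fold change of -0.74. Leaving X-linked genes out of scaling and fit gave 2086 calls among the others.

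**Figure D4:**
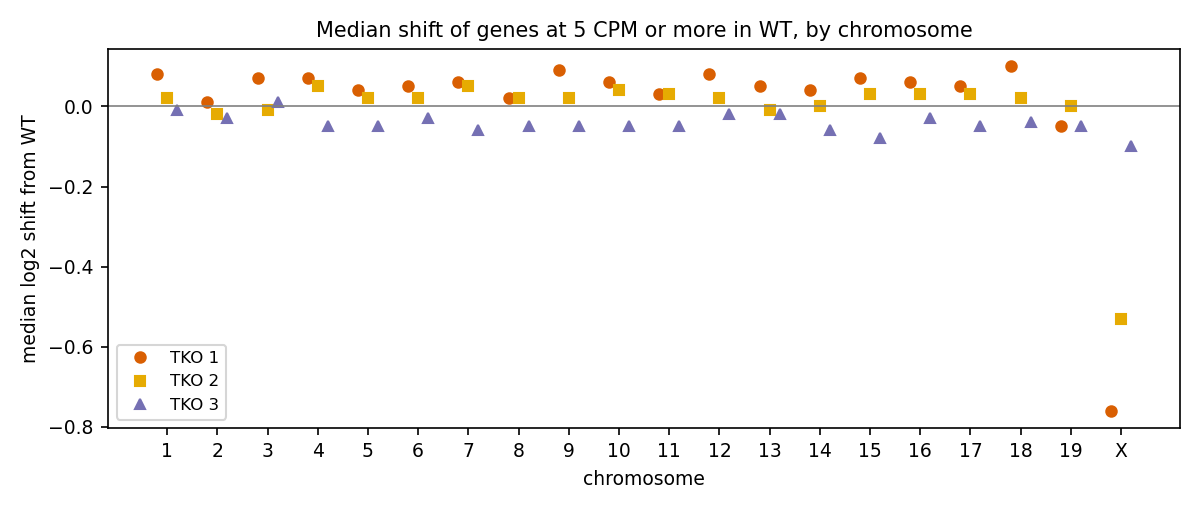
Median log2 shift from the WT mean of genes at 5 CPM or more in WT, by chromosome, for TKO 1, 2 and 3. Every autosome lies between -0.08 and 0.10, and X lies at -0.76 in TKO 1, -0.53 in TKO 2 and -0.10 in TKO 3.

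Imprinted genes were read by the parental copy that is normally expressed, since these cells carry a paternal genome only. Of 17 tested genes that are normally expressed from the maternal copy and belong to clusters methylated in oocytes, 6 rose and 0 fell. The 6 (35.3%) stand beside 9.83% of all genes. The count of 6 was 4, 4 and 9 without TKO 1, 2 and 3, 3, 3 and 4 without WT 1, 2 and 3, and 5 without either STOP library, and Grb10, Igf2r and Atp10a passed in all. Grb10, an adaptor that restrains growth signalling (chr11:11930508-12038683), measured 14.3, 23.1 and 16.8 CPM in WT and 101, 66.7 and 40.6 CPM in TKO 1, 2 and 3. Igf2r, the receptor that clears Igf2 (chr17:12682406-12769664), measured 92.4, 92.9 and 90.4 CPM in WT and 231, 183 and 135 CPM in TKO libraries. Atp10a, a lipid flippase (chr7:58656166-58829420), measured 1.85, 1.23 and 0.492 CPM in WT and 22.6, 12.4 and 5.77 CPM in TKO libraries. In all 3 genes the TKO libraries exceeded WT in the order TKO 1, TKO 2, TKO 3 (log2 fold changes 1.87 ± 0.30, 0.93 ± 0.14 and 3.46 ± 0.54 SE, edgeR adjusted p = 0.0061, 0.00518 and 0.00548).

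Of 19 tested genes normally expressed from the paternal copy in the same kind of cluster, 3 rose and 3 fell (15.8% each, beside 9.83% and 4.72% of all genes), and without TKO 3 the counts were 4 and 7. Without the other libraries they were 2 and 3 (TKO 1), 1 and 2 (TKO 2), 1 and 2, 1 and 1 and 1 and 2 (WT 1, 2 and 3), and 2 and 3 for either STOP library. Slc38a4, an amino acid transporter (chr15:96994820-97055956), rose from 159.8, 167 and 151 to 310.0, 369 and 295 CPM (log2 fold change 0.98 ± 0.089 SE, edgeR adjusted p = 0.000832) and passed in every alternative. Peg10, a gene derived from a retrotransposon and needed in the placenta (chr6:4747306-4760517), measured 596, 582 and 687 CPM in WT and 36.9, 52.1 and 155 CPM in TKO 1, 2 and 3. Its head-to-head neighbour Sgce (chr6:4674350-4747207) measured 3.99, 4.95 and 3.69 CPM in WT and 1.57, 1.66 and 0.941 CPM in TKO libraries. Both fell (log2 fold changes -2.94 ± 0.54 and -1.66 ± 0.31 SE, both edgeR adjusted p = 0.0105), Peg10 least in TKO 3 and Sgce most in TKO 3. Peg10 did not pass without TKO 2 (adjusted p = 0.0506), nor Sgce without WT 2 (0.0522).

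In clusters methylated in sperm, 2 of 6 tested genes rose, Meg3 and Rian (log2 fold changes 1.84 and 1.44), and 1 fell. The 2 rises were absent without TKO 2, any 1 WT library or either STOP library, and 2 fell without TKO 3. Zdbf2, a paternally expressed gene of chromosome 1 (chr1:63273265-63314576), measured 413, 410 and 417 CPM in WT and 179, 197 and 258 CPM in TKO libraries. It fell with no overlap and the least in TKO 3 (log2 fold change -1 ± 0.16 SE, edgeR adjusted p = 0.00618). Igf2, a fetal growth factor whose paternal expression depends on methylation of its control region (chr7:142650766-142666816), measured 16.4, 10.8 and 15.8 CPM in WT and 4.6, 3.85 and 17.2 CPM in TKO 1, 2 and 3. TKO 1 and 2 lay below WT and TKO 3 above it, so Igf2 did not pass over all libraries (edgeR adjusted p = 0.384). It passed without TKO 3, with a log2 fold change of -1.85. Its neighbour H19 did not pass over all libraries (log2 fold change -1.0, edgeR adjusted p = 0.481).

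Most genes of the pluripotency network did not pass over all libraries, and more of them fell without TKO 3. Of 10 core pluripotency genes 0 rose and 2 fell, and of 17 naive pluripotency genes 3 rose and 1 fell. Over all genes 9.83% rose and 4.72% fell. Without TKO 3 the counts were 0 and 6 for core genes and 3 and 11 for naive genes. In that fit 24.8% of all genes rose and 22.1% fell. The 2 core falls were 1 without any other library, and the 3 naive rises were 1, 0, 1 and 0 without TKO 2, WT 1, WT 2 and WT 3. The median shift of the naive genes was -0.49, -0.24 and 0.02 log2 units in TKO 1, 2 and 3. Lin28a, which blocks let-7 processing (chr4:134003330-134018841), fell from 134, 133 and 159 to 87.6, 76.7 and 69.6 CPM (log2 fold change -0.92 ± 0.1 SE, edgeR adjusted p = 0.00178), the lowest in TKO 3. Klf4, a transcription factor of the naive state (chr4:55527143-55532466), fell from 358, 393 and 355 to 193, 227 and 253 CPM (log2 fold change -0.76 ± 0.12 SE, edgeR adjusted p = 0.00654), the highest TKO value being TKO 3. Tbx3, a further naive factor (chr5:119670669-119684724), measured 333, 354 and 349 CPM in WT and 134, 186 and 355 CPM in TKO 1, 2 and 3, so TKO 3 lay at the WT level. Tbx3 did not pass over all libraries (edgeR adjusted p = 0.197) but passed without TKO 3, with a log2 fold change of -1.19. Pou5f1 fell slightly, from 923, 875 and 891 to 645, 621 and 770.5 CPM (log2 fold change -0.44, edgeR adjusted p = 0.0326). Among fits that left out a library, it passed only without TKO 3 (log2 fold change -0.59): the adjusted p was 0.116, 0.0867 and 0.117 without WT 1, 2 and 3, 0.0659 and 0.108 without TKO 1 and 2, and 0.0578 and 0.0573 without STOP 1 and 2. It was 0.0597 with TKO and WT alone.

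Transcripts of the 2-cell stage, which rare embryonic stem cells express, were lower in sum, while most tested members did not pass. Of 11 tested (22 listed), 0 rose, 3 fell (27.3%, beside 4.72% of all genes) and 8 did not pass. Without TKO 3, 10 fell, beside 22.1% of all genes in that fit. The falls were 2 without TKO 1 or either STOP library and 1 without TKO 2 or any 1 WT library. Members nearly absent from TKO libraries, such as Usp17lb, passed the filter on low counts only through other libraries. These could hardly be higher in TKO, so the counts do not describe all listed members. The 20 listed genes found in the table summed to 8.58 to 15.9 CPM in WT and 1.57 to 6.22 CPM in TKO libraries, so the groups did not overlap. Usp17lb, a deubiquitinase of that set, measured 1.31, 1.74 and 1.87 CPM in WT and 0, 0.095 and 0 CPM in TKO 1, 2 and 3, and fell in every alternative (edgeR adjusted p = 0.00542). Its copies are near-identical, so its own level is uncertain.

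Epiblast and lineage genes moved in both directions. Of 14 formative and primed epiblast genes, 6 rose and 2 fell, beside 9.83% and 4.72% of all genes. Without TKO 3 they were 6 and 5, beside 24.8% and 22.1%. The 6 became 5 and 4 without TKO 1 and 2, 3, 4 and 3 without WT 1, 2 and 3, and 5 without either STOP library, and the 2 falls were 1 without any library but TKO 3. Nes, an intermediate filament of neural progenitors (chr3:87971078-87980451), rose from 27.8, 28.1 and 31.5 to 139, 147 and 86.9 CPM (log2 fold change 2.03 ± 0.16 SE, edgeR adjusted p = 0.000455). Lef1, a nuclear partner of beta-catenin (chr3:131110471-131224356), rose from 3.75, 4.06 and 5.21 to 39.2, 33 and 11.2 CPM (log2 fold change 2.6 ± 0.39 SE, edgeR adjusted p = 0.005). Cdh2, the N-cadherin gene, rose from 7.87, 9.1 and 8.12 to 23.2, 26.3 and 22.5 CPM (log2 fold change 1.47, edgeR adjusted p = 0.00082). TKO 3 was lowest of the TKO libraries for Nes and Lef1 and level with them for Cdh2, and none of the 3 overlapped WT.

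Another 3 developmental transcription factors fell. T, the Brachyury factor of the primitive streak (chr17:8434423-8442496), fell from 8.4, 7.5 and 12.3 to 1.52, 1.95 and 2.09 CPM (log2 fold change -2.38 ± 0.28 SE, edgeR adjusted p = 0.00206). Of 9 tested mesoderm and endoderm genes, T among them, 2 rose (22.2%) and 1 fell (11.1%), beside 9.83% and 4.72% of all genes. Their median log2 fold change was 0.78, and the rises were Lefty1 and Lefty2 (1.19 and 0.78), so T does not stand for that list. Without TKO 3, 3 rose and 3 fell, and without any other 1 library 0 or 1 rose and 1 or 2 fell. Cdx1, a homeobox gene of the posterior embryo chosen after its values were seen, fell from 72.3, 66.1 and 69.6 to 18, 20.5 and 16.1 CPM (log2 fold change -1.98 ± 0.11 SE, edgeR adjusted p = 5.68e-05). Nkx1-2, a homeobox gene of the tail end of the embryo (chr7:132594878-132599637), fell from 17.5, 17.3 and 20.1 to 0.758, 1.95 and 3.44 CPM (log2 fold change -3.16 ± 0.49 SE, edgeR adjusted p = 0.00562). TKO 3 was as low as the other TKO libraries for T and Cdx1 and slightly higher for Nkx1-2, and all 3 falls passed in every alternative. Nkx1-2 was picked as a large fall without overlap between groups, so the choice fixed that TKO 3 lay below WT.

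Markers of extraembryonic and other cells changed at low levels or in opposite directions. Of 12 tested primitive endoderm markers 4 rose and 2 fell, of 15 trophectoderm markers 3 rose and 2 fell, of 15 neuronal genes 4 rose and 2 fell, and of 7 fibroblast markers 2 rose and 1 fell, beside 9.83% and 4.72% of all genes. Without TKO 3 these 4 lists gave 5 and 2, 4 and 4, 6 and 4, and 2 and 3. Without TKO 2 they gave 2 and 0, 2 and 1, 2 and 0, and 2 and 1, and without TKO 1 they gave 4 and 1, 4 and 1, 3 and 0, and 3 and 1. Without WT 1 they gave 1 and 0, 1 and 0, 2 and 0, and 1 and 1, without WT 2 2 and 0, 1 and 0, 1 and 1, and 1 and 1, without WT 3 1 and 0, 2 and 0, 1 and 0, and 1 and 1, and without either STOP library 4 and 0, 3 and 1, 3 and 1, and 2 and 1. Col4a1, a basement membrane collagen (chr8:11198423-11312826), rose from 5.3, 4.81 and 4.53 to 13.9, 20.4 and 12.3 CPM. Tfap2c, a factor of trophectoderm and germ cell precursors (chr2:172549593-172558622), rose from 27.4, 41.5 and 36.4 to 109, 131 and 87.8 CPM. Map2, a microtubule protein of neurons (chr1:66175273-66442583), rose from 3.58, 4.72 and 3.98 to 29.3, 20.1 and 10.9 CPM. No WT library reached any TKO library in these 3 genes (log2 fold changes 1.62, 1.59 and 2.22, with edgeR adjusted p = 0.00425, 0.00164 and 0.00419). Called lower in the primitive endoderm list were Sox7 and Amn (log2 fold changes -1.75 and -2.49). In the trophectoderm list they were Cdx2 and Krt8 (-2.62 and -1.28), and in the neuronal list Stmn3 and Gap43 (-1.85 and -1.35). Cdx2 fell from 4.83, 5.66 and 6.2 to 0.152, 0.95 and 1.59 CPM. Each of these falls was lost in some alternatives. Of the fibroblast markers Col5a1 rose from 7.93, 8.39 and 9.2 to 15.7, 15.9 and 14.7 CPM and Pdgfrb fell from 6.5, 7.36 and 5.66 to 2.63, 2.99 and 1.55 CPM.

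Some Hox genes, the patterning factors that Polycomb holds silent in embryonic stem cells, rose from low levels. Of the 21 tested (39 listed), 9 had fewer than 10 counts in every WT library and passed the filter only through other libraries, so these could hardly fall. Over the 21, 8 rose and 0 fell, 10 without TKO 3, 7 and 6 without TKO 1 and 2, 5 without any 1 WT library and 6 without either STOP library. The 8 (38.1%) stand beside 9.83% of all genes. Hoxa10 (chr6:52231197-52240854) measured 0.179, 0.141 and 0.148 CPM in WT and 1.82, 2.8 and 2.78 CPM in TKO 1, 2 and 3. Hoxd13 (chr2:74668310-74671599) measured 0.775, 0.472 and 0.344 CPM in WT and 3.89, 2.61 and 2.58 CPM in TKO libraries. Hoxc13 (chr15:102921103-102928814) measured 8.94, 9.1 and 8.07 CPM in WT and 17, 17.6 and 19.7 CPM in TKO libraries. TKO 3 was close to TKO 2 in these 3 genes, and no TKO library overlapped WT (log2 fold changes 3.91 ± 0.49, 2.47 ± 0.35 and 1.01 ± 0.14 SE, edgeR adjusted p = 0.00266, 0.0043 and 0.00425 for Hoxa10, Hoxd13 and Hoxc13). These 3 with Hoxd8 and Hoxd9 were the Hox genes that rose in every alternative. Hoxa10, Hoxd8 and Hoxd9 were among the 9 with fewer than 10 counts in every WT library, so the filter largely set their direction. Of 12 PRC2 subunits 1 rose and 2 fell: Ezh2, the catalytic subunit (chr6:47530139-47595341), rose from 227, 221 and 217 to 334, 305 and 284 CPM (log2 fold change 0.42 ± 0.066 SE, edgeR adjusted p = 0.00568). The 2 falls were 6 without TKO 3, beside 22.1% of all genes in that fit, and 0 without any 1 of the other libraries.

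Clustered protocadherins, cell surface proteins whose promoters are chosen under methylation, gave 22 rises and 0 falls among 36 tested. The 22 (61.1%) stand beside 9.83% of all genes. Of the 36, 14 stayed under the minimum count of the filter in every WT library and passed it only through other libraries. These could hardly fall, so the 0 falls do not describe all 36. All 22 genes that rose belong to the gamma cluster, whose transcripts share their last exons. Their log2 fold changes lay between 0.48 and 0.66, so they are close to a single signal counted for many genes. Pcdhgc3 rose from 44.8, 46.4 and 45.3 to 66.5, 68.5 and 61.9 CPM (edgeR adjusted p = 0.00803), with no overlap and TKO 3 the lowest of the TKO libraries.

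The median target of p53, which arrests or kills damaged cells, was higher in all 3 TKO libraries. Of 20 tested 6 rose and 1 fell, beside 9.83% and 4.72% of all genes. Without TKO 3 they were 10 and 1, beside 24.8% and 22.1% of all genes in that fit. Without TKO 1 they were also 10 and 1, beside 7% and 3.43%. The 6 became 4 without TKO 2, 4, 5 and 3 without WT 1, 2 and 3, and 5 without either STOP library. The median shift was 0.29, 0.50 and 0.69 log2 units in TKO 1, 2 and 3. Cdkn1a, the cell cycle inhibitor p21 (chr17:29090976-29100727), rose from 114, 128 and 101 to 185, 253 and 197 CPM. Trp53inp1 (chr4:11156431-11174379), which promotes p53 activity, rose from 249, 230.4 and 204 to 435, 429 and 498 CPM, highest in TKO 3. Bbc3, the cell death gene Puma (chr7:16308393-16318205), rose from 5.07, 3.4 and 2.95 to 10.4, 9.6 and 11 CPM. None of the 3 overlapped WT (log2 fold changes 0.84, 0.96 and 1.4, with edgeR adjusted p = 0.00547, 0.00206 and 0.00618), and each passed in every alternative.

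Genes of cholesterol synthesis and uptake showed small changes, 7 rises and 2 falls among 19 (36.8% and 10.5%, beside 9.83% and 4.72% of all genes). The 7 became 6, 3 and 10 without TKO 1, 2 and 3, 3, 3 and 2 without WT 1, 2 and 3, and 5 without either STOP library. The 2 falls were 1 without TKO 1 or either STOP library, 0 without TKO 2 or any 1 WT library and 4 without TKO 3. Cyp51, a sterol demethylase (chr5:4081145-4104746), rose from 135, 128 and 129.5 to 189.9, 200.4 and 197 CPM (log2 fold change 0.54 ± 0.077 SE, by edgeR adjusted p = 0.0043). Its TKO libraries lay within a narrow range above WT. Cytoplasmic ribosomal protein genes and mitotic genes hardly moved: of 80 ribosomal genes 1 rose and 2 fell, and of 18 mitotic genes 0 rose and 1 fell. Without TKO 3 these were 3 and 5, and 1 and 4; the ribosomal falls were 1 without TKO 1 and 0 without TKO 2 or any 1 WT library, and the mitotic fall was absent in all 5 of those fits. The riser was Rpl39l, a testis paralog of Rpl39 (chr16:10170226-10174911), from 9.12, 8.58 and 10.1 to 41.9, 30.6 and 32.9 CPM (log2 fold change 1.87 ± 0.16 SE, edgeR adjusted p = 0.000651).

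Of the antigen presentation genes, the class I heavy chain genes H2-K1 and H2-D1 rose, while B2m, which encodes their shared light chain, fell (log2 fold change -0.65, edgeR adjusted p = 0.0184). Of 17 tested interferon-induced and antigen presentation genes 4 rose and 1 fell, beside 9.83% and 4.72% of all genes. Without TKO 3 they were 6 and 3, beside 24.8% and 22.1%. The 4 became 2 without TKO 2, and 1, 1 and 0 without WT 1, 2 and 3, and the fall of B2m was absent in those 4 fits. H2-K1, a class I histocompatibility gene (chr17:33996017-34000347), measured 6.44, 7.92 and 5.07 CPM in WT and 56.4, 32.6 and 9.86 CPM in TKO 1, 2 and 3. H2-D1, of the same class (chr17:35262730-35267499), measured 7.69, 3.96 and 4.08 CPM in WT and 39.5, 21.3 and 12.8 CPM in TKO libraries, and Bst2, the membrane protein tetherin (chr8:71534255-71537456), 5.9, 6.98 and 6.54 against 43.4, 26.9 and 9.16 CPM. All TKO libraries exceeded WT, in the order TKO 1, TKO 2, TKO 3, and the 3 genes rose (log2 fold changes 2.26 ± 0.49, 2.16 ± 0.39 and 1.95 ± 0.43 SE, edgeR adjusted p = 0.0199, 0.00977 and 0.0203). H2-K1 did not pass without TKO 2 or WT 1, 2 or 3 (adjusted p = 0.0637, 0.0881, 0.0636 and 0.0944), nor did Bst2 (0.0658, 0.0927, 0.0729 and 0.087), and H2-D1 did not pass without WT 2 or 3 (0.0522 and 0.0582).

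Genes of hypoxia and glycolysis separated TKO 3 from TKO 1 and 2. Of 24 tested, 4 rose and 0 fell over all libraries, against 18 and 1 without TKO 3, beside 24.8% and 22.1% of 14881 genes in that fit. The 4 became 3 and 1 without TKO 1 and 2, 0, 1 and 0 without WT 1, 2 and 3, and 2 without either STOP library. The median shift was 0.71 and 0.74 log2 units in TKO 1 and 2 and -0.09 in TKO 3. Bnip3, a mitophagy protein induced by low oxygen (chr7:138890836-138909519), measured 12.7, 31 and 15 CPM in WT, 163 and 139 CPM in TKO 1 and 2, 24.5 CPM in TKO 3 and on average 172 CPM in STOP. TKO 3 lay within the WT range. Egln3, an oxygen-sensing hydroxylase (chr12:54178981-54203860), measured 3.93, 5.47 and 3.98 CPM in WT and 28.1, 42.9 and 9.32 CPM in TKO 1, 2 and 3, and Ndrg1, a stress-induced gene (chr15:66929318-66969640), 6.91, 9.53 and 5.41 against 53, 54 and 11.7 CPM. In these 2 genes TKO 3 lay above WT but well under TKO 1 and 2.

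Over all libraries Bnip3, Egln3 and Ndrg1 rose (log2 fold changes 2.39 ± 0.61, 2.51 ± 0.47 and 2.36 ± 0.53 SE, edgeR adjusted p = 0.0337, 0.0112 and 0.0217), with 2.85, 2.9 and 2.78 without TKO 3. Egln3 did not pass without WT 1 or 3 (adjusted p = 0.0627 and 0.0629), and Ndrg1 did not pass without TKO 2 or WT 1, 2 or 3 (0.0783, 0.0947, 0.0629 and 0.102). Bnip3 did not pass without WT 1, 2 or 3 (0.131, 0.0608 and 0.136), TKO 1 or 2 (0.0738 and 0.108) or STOP 1 or 2 (0.0603 and 0.0599), nor with TKO and WT alone (0.0592). Hif3a, a hypoxia-inducible factor subunit (chr7:17031507-17062427), was among the genes in which TKO 3 lay farthest below the other TKO libraries: it measured 2.09, 3.49 and 2.51 CPM in WT and 18.3, 19.1 and 2.17 CPM in TKO 1, 2 and 3. It did not pass over all libraries (edgeR adjusted p = 0.0539), with a log2 fold change of 2.69 without TKO 3. Integrated stress response targets also differed between TKO libraries, with median shifts of 0.68, 0.09 and -0.55 log2 units over 15 tested genes; 0 passed with edgeR over all libraries, 2 were higher and 2 lower at an unadjusted p under 0.05, DESeq2 called 1 higher, and 6 rose without TKO 3.

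Other genes showed the reverse, a level in TKO 3 above that of TKO 1 and 2. The genes named here were picked because TKO 3 lay farthest above TKO 1 and 2, so the choice set that difference. Spry4, an inhibitor of FGF signalling to ERK that the pathway itself induces, measured 121, 82.7 and 120.1 CPM in WT and 6.97, 7.27 and 58.9 CPM in TKO 1, 2 and 3. Myc, a growth regulator (chr15:61985391-61990374), measured 38.2, 28.4 and 41.5 CPM in WT and 0.859, 3.14 and 15.9 CPM in TKO libraries. All TKO libraries lay below WT in both genes, and TKO 3 was nearest to it. Neither passed over all libraries (edgeR adjusted p = 0.087 and 0.0714), and without TKO 3 the log2 fold changes were -4.01 and -4.24. Pramel6, of a family known in naive embryonic stem cells (chr2:87506565-87510872), measured 23.8, 23.2 and 22.6 CPM in WT, 3.33 and 13.7 CPM in TKO 1 and 2 and 95.1 CPM in TKO 3. TKO 1 and 2 lay below WT and TKO 3 above it, so its log2 fold change was 0.71 ± 0.89 SE over all libraries (edgeR adjusted p = 0.615) and -1.52 without TKO 3.

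**Figure D5:**
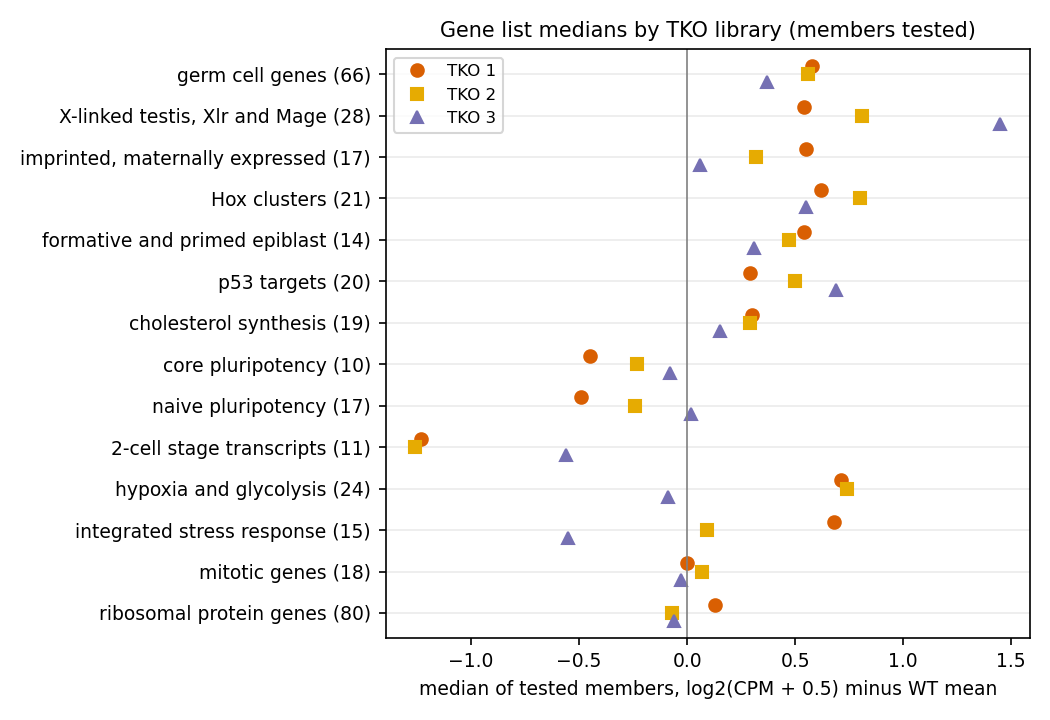
Median shift from WT of the tested members of 14 gene lists (log2(CPM + 0.5) minus the WT mean, number tested in brackets) in TKO 1, 2 and 3. Hypoxia and glycolysis genes lie at 0.71 and 0.74 in TKO 1 and 2 and at -0.09 in TKO 3, while X-linked testis, Xlr and Mage genes (1.45) and p53 targets (0.69) are highest in TKO 3; ribosomal and mitotic genes stay between -0.07 and 0.13.

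Among the largest rises were Dcdc2a and Crmp1, genes known from neuronal microtubules and axon guidance. Dcdc2a (chr13:25056004-25210706) measured 1.07, 1.18 and 1.03 CPM in WT and 43.8, 21.8 and 13.5 CPM in TKO 1, 2 and 3, and Crmp1 (chr5:37241940-37292133) measured 1.67, 0.943 and 1.57 against 57.2, 25.8 and 11.7 CPM. Jag2, a Notch ligand (chr12:112907819-112929776), measured 2.21, 2.36 and 1.43 CPM in WT and 40.9, 24.8 and 7.16 CPM in TKO libraries. TKO 3 was the lowest TKO library in all 3 and still above WT (log2 fold changes 4.51 ± 0.42, 4.43 ± 0.55 and 3.52 ± 0.54 SE, edgeR adjusted p = 0.000837, 0.00263 and 0.00548). Nlrp4c, of an oocyte gene family (chr7:6045161-6105150), ran the other way, from 0.536, 0.99 and 0.787 CPM in WT to 3.23, 7.79 and 13.8 CPM in TKO 1, 2 and 3. Ace, the angiotensin-converting enzyme with a testis form (chr11:105967945-105989964), rose from 0.596, 0.802 and 0.59 to 11.1, 9.36 and 3.23 CPM, and Sgo2b, a shugoshin paralog (chr8:63924694-63952248), from 0.417, 0.424 and 0.738 to 7.12, 4.56 and 3.93 CPM. Log2 fold changes of these last 3 were 3.38 ± 0.55, 3.48 ± 0.46 and 3.22 ± 0.39 SE (edgeR adjusted p = 0.00624, 0.00319 and 0.00232), and all 6 genes passed in every alternative. The 6 were picked as called genes with large rises and no overlap between groups. That choice fixed that TKO 3 lay above WT, and the p-values give no separate support.

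Leaving out predicted genes and pseudogenes, 3 genes went from under 0.5 CPM in every WT library to at least 2 CPM in every TKO library. Myom2, a protein of the muscle M band (chr8:15057653-15133541), measured 0.238, 0.377 and 0.246 CPM in WT and 3.23, 4.75 and 3.8 CPM in TKO libraries. Txlnb (chr10:17796226-17845665), a muscle taxilin, measured 0.477, 0.377 and 0.492 against 6.16, 3.14 and 2.21 CPM. Dnajc5g, a testis cochaperone (chr5:31106285-31112526), measured 0.0596, 0.472 and 0.295 against 5.91, 2.8 and 2.58 CPM. All 3 rose in every alternative (edgeR adjusted p = 0.000837, 0.00394 and 0.00489). They were picked by these same values, so the choice set their direction and the p-values give no separate support.

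Beside Dnmt1, Dnmt3a, Nkx1-2 and Peg10, the largest falls included genes of transport, metabolism and adhesion. Itga9, an integrin subunit (chr9:118606690-118901003), measured 20.7, 23.6 and 20.1 CPM in WT and 2.07, 1.33 and 6.34 CPM in TKO 1, 2 and 3. Mep1b, a membrane protease subunit, measured 111, 105 and 105 CPM in WT and 11.7, 11.2 and 28.4 CPM in TKO libraries. TKO 3 was the highest TKO library in both and stayed well below WT (log2 fold changes -2.72 ± 0.51 and -2.66 ± 0.35 SE, edgeR adjusted p = 0.0107 and 0.00332). Dmgdh, a mitochondrial enzyme of choline breakdown (chr13:93674433-93752833), fell from 25.9, 21.3 and 21.2 to 4.8, 3.47 and 3.11 CPM. The glutamate transporter gene Slc1a3 (chr15:8634124-8710764) fell from 14.5, 15.8 and 17.7 to 2.37, 2.76 and 3.11 CPM. In both genes TKO 3 was as low as the other TKO libraries (log2 fold changes -2.64 ± 0.19 and -2.58 ± 0.20 SE, edgeR adjusted p = 0.000296 and 0.000395). Dnah10, a dynein of cilia (chr5:124725085-124834308), fell from 10.6, 10.3 and 8.31 to 0.707, 2.04 and 2.09 CPM (log2 fold change -2.61 ± 0.38 SE, edgeR adjusted p = 0.0043). Itga9, Mep1b, Dmgdh, Slc1a3 and Dnah10 were picked as called genes with large falls and no overlap between groups. That choice fixed that TKO 3 lay below WT, and the p-values give no separate support.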

How the data were processed

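Polyadenylated RNA of 8 libraries of AG-haESC cells was measured. The deposited table holds raw counts of reads for 25277 genes. Per the submitters' processing notes the authors used Trim Galore 0.6.6, HISAT2 2.1.0, featureCounts 1.6.4, DESeq2 and the mm10 build. The settings for strand and for reads mapping to several places are not given in the sources used here, so reads of overlapping, antisense or near-identical genes may be shared. The protocol describes a poly(A) kit and a low-input kit without saying which libraries got which.

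Libraries were grouped by genotype label. WT, TKO and STOP were fitted together in edgeR 4.0.16 (R 4.3.3) with TMM scaling, filterByExpr (minimum count 10) and the quasi-likelihood F test of TKO against WT, with Benjamini-Hochberg adjustment over all 14959 genes and a threshold of 0.05. SE was taken as |log2 fold change| over the root of the F statistic. CPM use library totals, so their ratio can differ from the fitted fold. Shifts use log2(CPM + 0.5). Simulated data with known changes were used to test the fit.

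Gene positions are from GENCODE M21 (mm10; 24418 symbols, 96.6%). Promoter sequences are from RefSeq (GRCm38.p6), taking the most upstream start of a gene; 57 of 66 tested germ cell genes matched.

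Genes and lists were chosen with earlier results of these data known. Genes could be named from 35 lists, from the 15 largest rises and 12 largest falls (at least 5 CPM in the higher group, no overlap), if under 0.5 CPM in every WT and at least 2 in every TKO library, or if TKO 3 lay farthest outside TKO 1 and 2. Predicted genes and pseudogenes were left out. Alternatives were DESeq2 1.42.0, median-of-ratios scaling, no low-count filter, TKO and WT alone, a replicate block, no X-linked genes and each library left out; 2 fits without TKO 3 were added after the data were seen. Transposons, embryos and tissues were not analysed here. Counting error is small at 16.8 to 24.5 M counts per library beside the spread between libraries, and 3 libraries per group limit the precision. Some results are not reported here.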

Additional observations from a re-analysis of the deposited data

How the results depend on the processing

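The number of called genes, 2177, was 3227 with DESeq2, 2194 with median-of-ratios scaling, 2232 without a filter, 2086 without X-linked genes and 1291 when STOP was left out of the fit. Leaving out 1 library gave 574 to 6968, and without TKO 3 it was 6479 with DESeq2 and 6570 when STOP was left out too, both chosen after the data were seen. The replicate block gave 2723 calls; same-numbered WT and TKO libraries correlated at 0.00549, 0.179 and 0.195 in their deviations from the group means, so the numbers were not taken to pair them. None of the 75 named calls changed direction in the 16 alternatives, and 61 passed in each that tested them. Over all 2177 calls, 522 did so. The named genes were chosen with results known, so their share does not describe the calls as a whole. Pramel6, not called, had a log2 fold change of 0.71 over all libraries, 1.25 without TKO 1, -1.52 without TKO 3, -1.54 in that fit with DESeq2, -1.52 when STOP was left out too and -0.40 with the replicate block; the cause beyond the omission of TKO 3 was not tested. A group of 3 libraries in which 1 stands apart limits every TKO mean here, and genes under about 1 CPM rest on few counts.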
